A study of Mus musculus with 6 samples.

Results

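A set of 9 genes known from secretory glands, mainly the salivary and lacrimal glands, were followed in mammary tumors and control mammary glands of the mouse. They are Scgb2b27, Scgb1b27, Bhlha15, Pigr, Prol1, Lpo, Amy1, Klk1 and 2310057J18Rik. A probe set, a group of short oligonucleotides that reads 1 transcript or a few, was taken for a gene where the platform annotation gave that gene's symbol and no other. This gave 15 probe sets for the 9 genes, out of 18193 genes with such a probe set on the array. The 9 genes were chosen by their signals on these same arrays, so their tumor and control values are given as a description, with no test.

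The samples were 3 acinar tumors of the mammary gland, grown in K14-cre; Apc CKO/+ animals, and 3 control glands of cre-negative animals matched to them in age, with 1 Affymetrix M430 2.0 array each. In the tumor-bearing mice the keratin 14 promoter drives Cre in progenitors of both mammary epithelial lineages, and Cre inactivates 1 floxed allele of Apc, a tumor suppressor that restrains Wnt signaling. Per the study's text, the other Apc allele of each of these tumors carried a truncating mutation, and the mice were of mixed background. The Apc genotype of the control mice and the ages were not stated. The labels name the samples of each group biological replicates, without saying that each came from a separate animal, so that any statistic measures the spread between these samples. All signals are MAS5 values on a linear scale, each array scaled by the authors to a trimmed mean of 500. Median signals were 132.7 to 170.7 on the control arrays and 124.4 to 138.3 on the tumor arrays. In whole tissue, fewer cells of a type and less RNA per cell cannot be told apart.

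Salivary and lacrimal glands are exocrine: acinar cells make and store proteins and release them with fluid into ducts. The mammary gland shares part of this plan and, in lactation, also passes IgA into its secretion through the polymeric immunoglobulin receptor. Among the 9 genes are subunits of a secreted protein of saliva and tears, a transcription factor of acinar cells, the IgA receptor, a mucin-like protein and several secreted enzymes.

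Of the 9 genes, 7 passed the filter, which asked for 3 or more of the 6 arrays with a signal of 100 or more, and Prol1 and Lpo did not. With limma at an adjusted p under 0.05, a threshold passed upward by 16.3% and downward by 16.8% of the 12518 genes tested, 4 members were higher in tumors, 1 was lower and 2 were not called. In 5 of the 7 the lowest tumor was above the highest control gland, beside 27.1% of all genes tested, and in 1 of the 7 the highest tumor was below the lowest control gland, beside 23.1%. The choice of the members fixes these counts, and nothing is read from them. A log2 difference is the mean of the tumors minus the mean of the control glands after signals below 50 were set to 50. Where an adjusted p is given as up to or down to a value, it is the extreme over all alternatives in the processing.

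**Figure D1:**
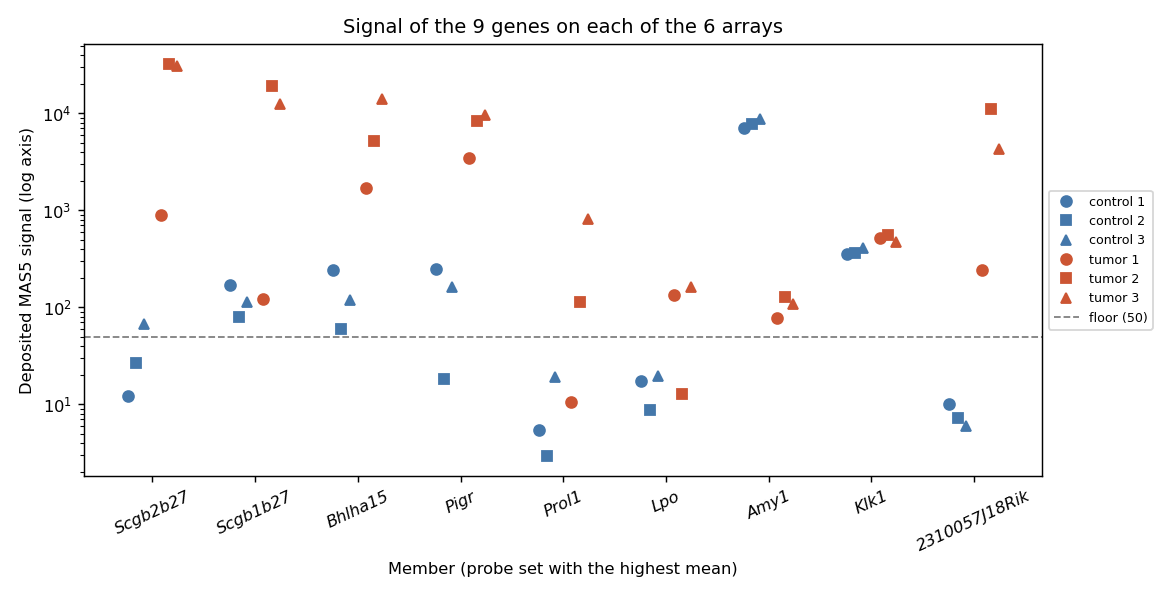
Deposited MAS5 signal (log axis) of each of the 9 genes on the 6 arrays; blue points are control glands, orange points are tumors, the shape gives the replicate and the dashed line is the floor of 50. Scgb2b27, Scgb1b27 and 2310057J18Rik lie lower in tumor 1 than in tumors 2 and 3, and Amy1 is the member whose control glands all lie above the tumors.

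Scgb2b27 and Scgb1b27 are secretoglobins of the androgen-binding protein family. In the mouse this protein is a dimer of an alpha subunit, such as that of Scgb1b27, and a second subunit of the Scgb2b group, and it is secreted into saliva and tears. In the RefSeq annotation of build GRCm38.p6 both lie on chromosome 7, on opposite strands with their start sites 7539 bases apart and 0 annotated genes between them. The files name no genome build, so these positions are those of RefSeq and not of the probe sets. The 250 bases before each start site are shown because both genes had high signals in the same tumors and lie head to head; capitals mark each match to CANNTG, the letters that basic helix-loop-helix factors bind. The Scgb2b27 window is chr7:34013943-34014192 on the minus strand and that of Scgb1b27 is chr7:34021231-34021480 on the plus strand, both written 5′ to 3′.
Scgb2b27: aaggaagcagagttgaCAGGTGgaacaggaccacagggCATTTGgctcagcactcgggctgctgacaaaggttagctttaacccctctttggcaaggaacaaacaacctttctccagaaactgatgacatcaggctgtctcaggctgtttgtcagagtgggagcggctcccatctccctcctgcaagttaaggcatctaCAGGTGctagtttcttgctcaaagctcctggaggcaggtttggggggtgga
Scgb1b27: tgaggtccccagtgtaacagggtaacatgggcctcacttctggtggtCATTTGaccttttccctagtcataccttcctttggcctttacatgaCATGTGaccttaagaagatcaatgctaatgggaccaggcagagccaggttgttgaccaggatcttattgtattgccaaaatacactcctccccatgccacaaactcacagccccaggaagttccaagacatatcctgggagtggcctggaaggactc
CANNTG reads the same on both strands, and it was found 3 times before Scgb2b27 and 2 times before Scgb1b27. Of 32851 promoter windows of the same length, 66.2% held at least 1 match, so a match is common. CATATG and CAGCTG, which are among the forms of CANNTG, were held by 3.46% and 13% of all windows and by neither of these windows.

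The Scgb2b27 signal was 12.1, 26.5 and 67.4 in the control glands and 887.8, 32587.7 and 30573.2 in the tumors. Thus the lowest tumor was 13.2 times the highest control gland, but tumor 1 lay far below the other tumors. The log2 difference was 7.44 (SE 1.28, n = 3 per group), and the SD of the log2 signals was 2.98 among tumors and 0.249 among control glands. As 2 of the 3 control signals were under the floor of 50, this difference rests partly on the floor. It was 9.16, 6.56 or 6.61 without tumor 1, 2 or 3.

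The Scgb1b27 signal was 171.3, 78.6 and 113 in the control glands and 121.3, 18986.7 and 12355.4 in the tumors. Tumor 1 fell inside the range of the control glands, while tumors 2 and 3 were 157 and 102 times the control mean of 121. The groups thus overlapped, and with a log2 difference of 4.73 (SE 1.74) and an SD of 4.04 among tumors the gene was not called. Tumor 1 therefore had a raised signal for one subunit gene, Scgb2b27, and a signal at the control level for its neighbor. Leaving out tumor 1, 2 or 3 gave a log2 difference of 7.06, 3.41 or 3.72 for Scgb1b27.

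The family around these genes gave little further signal. Of 26 other secretoglobin genes listed, 4 had a probe set of 1 symbol and 0 passed the filter, with 100.1 as the highest signal of any of them. Scgb1b2, another alpha subunit gene, read 28.1, 45 and 17.7 in the control glands and 36.8, 79.2 and 100.1 in the tumors. Scgb1a1 and Scgb3a2, which mark airway secretory cells, stayed at or below 73.1 on every array. The subunit genes of this family are close copies of one another, and how far the Scgb2b27 and Scgb1b27 probe sets also read such copies was not tested.

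Bhlha15 encodes MIST1, a basic helix-loop-helix transcription factor that serves the secretory apparatus of acinar and other serous cells. Its signal was 243, 59.1 and 119.8 in the control glands and 1703.7, 5196.5 and 13908 in the tumors. All tumors lay above all control glands, the lowest tumor 7.01 times above the highest control gland, and tumor 3 was the highest and tumor 1 the lowest. The log2 difference was 5.38 (SE 0.798), or 41.5-fold, with an SD of 1.52 among tumors. It was 6.15 without tumor 1 and 4.63 without tumor 3. A second probe set read 39.3, 67.6 and 23.9 in the control glands and 99.4, 128.9 and 170.1 in the tumors, the same order of the tumors at a level that did not pass the filter.

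The 6 genes reported as MIST1 targets in exocrine cells gave 5 tested genes, of which 2 were higher in tumors, 0 lower and 3 not called, with a median log2 difference of 1.45 beside 0.071 over all genes tested. Gjb1, which encodes the gap junction protein connexin 32, was at or below 17 in the control glands and at 168, 330.8 and 415.2 in the tumors (log2 difference 2.51, limma adjusted p = 0.00204). Atp2c2, a calcium and manganese pump of the secretory pathway, differed by 2.12 (limma adjusted p = 0.016) and lost its call without control gland 2 and with no filter (limma adjusted p up to 0.0751). Rab3d, a small GTPase of secretory granules that was named after its values were seen, read 1653.6, 3294 and 6074.4 in tumors 1, 2 and 3, in the same order as Bhlha15, and missed the threshold (limma adjusted p = 0.0518). Copz2 and Cib1 were furthest from passing, with log2 differences of 0.54 and 0.07 (limma adjusted p = 0.32 and 0.85). The order of the tumors was that of Bhlha15 in Gjb1 and Copz2 too, but not in Atp2c2 and Cib1. How many of all genes share this order was not counted. Pan-epithelial genes had a median log2 difference of 2.11, and their summed signal ran in this order too (85899, 101543 and 108761 in tumors 1, 2 and 3). Atp2c2 read 654, 278 and 1059.7 in tumors 1, 2 and 3, and Cib1 read 1260.4, 724.3 and 860.2. Rab26, the listed gene that failed the filter, was above the floor in tumor 3 alone, at 450.1.

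Pigr encodes the polymeric immunoglobulin receptor, which carries IgA and IgM through epithelial cells to the secretion. Its signal was 248, 18.2 and 162.3 in the control glands and 3477.8, 8415.1 and 9714.3 in the tumors. The groups were well apart, with the lowest tumor 14 times the highest control gland. Tumor 1 was again the lowest tumor, but the SD among tumors, 0.803, was under that among control glands, 1.2. The log2 difference was 5.7 (SE 0.639), or 52.1-fold, and a second probe set that passed the filter gave 5.14, from 1957.5, 4193.7 and 3045.6 in the tumors and at most 109.7 in the control glands. Without control gland 2, whose signal was the lowest, the difference on the first probe set was 5.03.

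A list of genes of immunoglobulins, their transport, B cells and plasma cells was mostly lower in tumors, opposite to Pigr. Of 12 tested genes of this list 2 were higher in tumors, 7 lower and 3 not called, with a median log2 difference of -2.54. Igha, the IgA heavy chain, read 37566.7, 2133.6 and 1255.3 in the control glands and 299.4, 601.1 and 205.9 in the tumors (log2 difference -3.8, limma adjusted p = 0.0437). Control gland 1 thus carried most of the IgA signal. It also had the highest summed signal of lymph node B and T cell genes, 25518 beside 7554 and 12527 in control glands 2 and 3. Igha lost its call when control gland 2 or any 1 tumor was left out, with a floor of 16 and with no filter. Its limma adjusted p lay between 0.0205 and 0.162 over the alternatives in which it was tested. The J chain gene Jchain, the IgM heavy chain gene Ighm and the Fc receptor gene Fcgrt were lower by -4.44, -4.42 and -3.26 (limma adjusted p = 0.0191, 0.000522 and 0.000231). Jchain lost its call without tumor 1, without tumor 3 and with no filter (limma adjusted p up to 0.0959). The 2 genes higher in tumors, outside the naming rule and named for being few, were Ccl28, a chemokine that epithelial cells make and that draws IgA-secreting cells (log2 difference 2.32, limma adjusted p = 0.00262), and Sdc1, a proteoglycan of plasma cells that epithelial cells also carry (2.11, limma adjusted p = 0.00556). Prdm1 and Pou2af1 were furthest from passing (limma adjusted p = 0.894 and 0.713).

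The gene 2310057J18Rik, whose RefSeq synonym is Leg1, was read by 1 probe set, of a type that may read several transcripts. Its signal was 10.1, 7.2 and 6 in the control glands and 245.5, 11184.8 and 4326.4 in the tumors. All 3 control glands lay under the floor of 50, so that the log2 difference of 5.51 (SE 1.23) is a lower bound, at least 45.6-fold. Tumor 1 was at least 4.91 times the control glands, tumor 2 at least 224 times and tumor 3 at least 86.5 times, each against the floor. The SD among tumors was 2.87, and the log2 difference was 7.12 without tumor 1 and 4.37 without tumor 2. The 250 bases before its RefSeq start, chr10:28986307-28986556 on the minus strand in GRCm38.p6, are shown beside those of the secretoglobin pair. The reason is that its signal, like theirs, was far lower in tumor 1 than in tumors 2 and 3. These bases hold 0 matches to CANNTG and so no capitals.
2310057J18Rik: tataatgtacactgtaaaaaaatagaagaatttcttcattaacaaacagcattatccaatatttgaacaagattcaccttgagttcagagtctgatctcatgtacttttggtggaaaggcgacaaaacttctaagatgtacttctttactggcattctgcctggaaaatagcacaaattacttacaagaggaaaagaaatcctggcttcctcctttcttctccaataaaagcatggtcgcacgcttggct
The absence of these letters concerns this window alone. GC made up 36.4% of it, against 52.8% and 49.2% of the Scgb2b27 and Scgb1b27 windows and a median of 52.4% over all windows.

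Prol1, also named Muc10, encodes a mucin-like protein of the mouse submandibular gland. Its better probe set read 5.5, 2.9 and 19.2 in the control glands and 10.5, 113.8 and 822.7 in the tumors. Only tumors 2 and 3 rose above the floor, and tumor 1 lay within the control range, so that the groups overlapped and the gene failed the filter. A second probe set was above the floor in tumor 3 alone, at 187.9.

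Lpo encodes lactoperoxidase, an antibacterial enzyme of saliva, tears and milk. It read 17.5, 8.7 and 19.4 in the control glands and 134.5, 12.7 and 163.2 in the tumors. Here tumor 2, one of the tumors with high secretoglobin signals, lay at the control level, and the gene failed the filter. With so few signals above the floor, its log2 difference of 1.04 was set largely by the floor, and a floor of 16 gave 2 and a floor of 100 gave 0.38. Among the other heme peroxidases and the suppliers of their hydrogen peroxide, 1 of 3 tested genes was higher, 1 lower and 1 not called. Duoxa1, the maturation factor of the oxidase DUOX1, was higher by 1.42 (limma adjusted p = 0.0407), Duox1 itself missed the threshold with its highest signal in tumor 3 (148.5, 92.5 and 713.4 in the tumors, limma adjusted p = 0.395), and Pxdn, a peroxidase of the extracellular matrix, was lower by -1.39 (limma adjusted p = 0.0154). Duoxa1 lost its call without any 1 control gland, without tumor 2 or without tumor 3, and Pxdn without control gland 3 or tumor 2, and both with no filter (limma adjusted p up to 0.13 and 0.057).

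Klk1 encodes tissue kallikrein, a serine protease that releases kinins and is abundant in salivary ducts. The probe set with the highest mean read 353.4, 362.8 and 406.9 in the control glands and 522.7, 551.9 and 469.2 in the tumors. The tumors lay above the control glands by a small margin, a log2 difference of 0.46 (SE 0.195), which was not called. The other 3 probe sets of Klk1 stayed at or below 126.3 on every array, failed the filter and had differences of -0.23, -0.30 and -0.45, opposite in sign. The probe set used is of a type that may cross-hybridize, and the probe sets of this gene disagreed.

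Of the other kallikrein genes, 18 had a probe set of 1 symbol, 5 were tested, 3 were higher in tumors, 0 lower and 2 not called. Klk7 and Klk6, proteases known from skin and other epithelia, were higher by 2.62 and 2.37 (limma adjusted p = 0.00185 and 0.00268). Both were highest in tumor 1, unlike the secretoglobins. In tumors 1, 2 and 3 Klk7 read 541.6, 521 and 447.2 and Klk6 read 523.5, 249.2 and 234.6. The summed signal of the list was also highest in tumor 1, at 2745, 2110 and 2025. Klk1b11, a close relative of Klk1, read 7.3, 7.7 and 27.7 in the control glands and 105.6, 291.8 and 320.9 in the tumors, lowest in tumor 1 as for the secretoglobins (log2 difference 2.1, limma adjusted p = 0.00887). It lost its call with a floor of 100 (limma adjusted p = 0.0747). Klk8 and Klk1b21 missed the threshold (limma adjusted p = 0.189 and 0.124) and passed it without control gland 1 and without tumor 1, respectively (limma adjusted p down to 0.041 and 0.0321). Klk1b21 also passed with replicate number entered as a block (limma adjusted p = 0.0373).

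Amy1 encodes the amylase of salivary gland and liver, which cleaves starch. It is the member that was called lower in tumors. Its signal was 7055.8, 7735.6 and 8723.3 in the control glands and 78.4, 128.2 and 107.7 in the tumors. The tumors lay close together, with an SD of 0.36, and far below the control glands, by a log2 difference of -6.25 (SE 0.247). A further probe set annotated to both Rnpc3 and Amy1 was left out, and it read 599.9 to 909.8 in the control glands and 464.5 to 704 in the tumors. Amy1 thus had its high signal in control mammary glands, and the highest tumor signal was 128.2.

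Adipocyte markers moved with Amy1: 10 of 10 tested were lower in tumors, with a median log2 difference of -6.33, and their summed signal was 184706 to 244141 in the control glands and 1768 to 18583 in the tumors. None of the 10 was below the floor on every array. Their part in the Amy1 difference was not tested. The genes whose signals ran most like those of Amy1 were Ebf3 and Hoxc8, with Pearson correlations of 0.9995 and 0.9991 of log2 signals over the 6 arrays, which follow mainly the distance between the groups.

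Digestive enzymes of the pancreatic type were mostly low. Of 10 such genes with a probe set, 4 were tested, 1 was higher, 1 lower and 2 not called, and 5 were below the floor on all arrays. Cel, carboxyl ester lipase, an enzyme of pancreatic juice and milk, read 253.5, 85.5 and 208.5 in the control glands and 4618.5, 1109 and 20159 in the tumors (log2 difference 4.83, limma adjusted p = 0.00925). Its lowest tumor was tumor 2, so that it did not share the order of the secretoglobins. Cela1, an elastase, was lower by -2.4 (limma adjusted p = 0.0156), and Rnase1 and Prss2 were not called (limma adjusted p = 0.104 and 0.706). Cel and Cela1 lost their calls with no filter (limma adjusted p = 0.0615 and 0.0768). The methods' t-test called 0 tested genes of this list. Rnase1 read 126.5, 1281.6 and 1167.3 in the tumors and was called without tumor 1 (limma adjusted p = 0.00371).

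The spread among the tumors was wide for some members and narrow for others. The SD of log2 signals over the 3 tumors had a median of 0.318 over all genes tested and exceeded 1 for 4.17% of them and 2 for 0.423%. Among the 7 members tested it exceeded 1 for 4 (Scgb2b27, Scgb1b27, Bhlha15 and 2310057J18Rik) and 2 for 3 of these, while it was 0.36 for Amy1 and 0.119 for Klk1. The members were picked with this spread known, so no test applies. Tumor 1 was the lowest tumor for Scgb2b27, Scgb1b27, Bhlha15, Pigr, Prol1, Amy1 and 2310057J18Rik, tumor 2 was the highest for Scgb2b27, Scgb1b27, Amy1, Klk1 and 2310057J18Rik, and tumor 3 was the highest for Bhlha15, Pigr, Prol1 and Lpo.

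**Figure D2:**
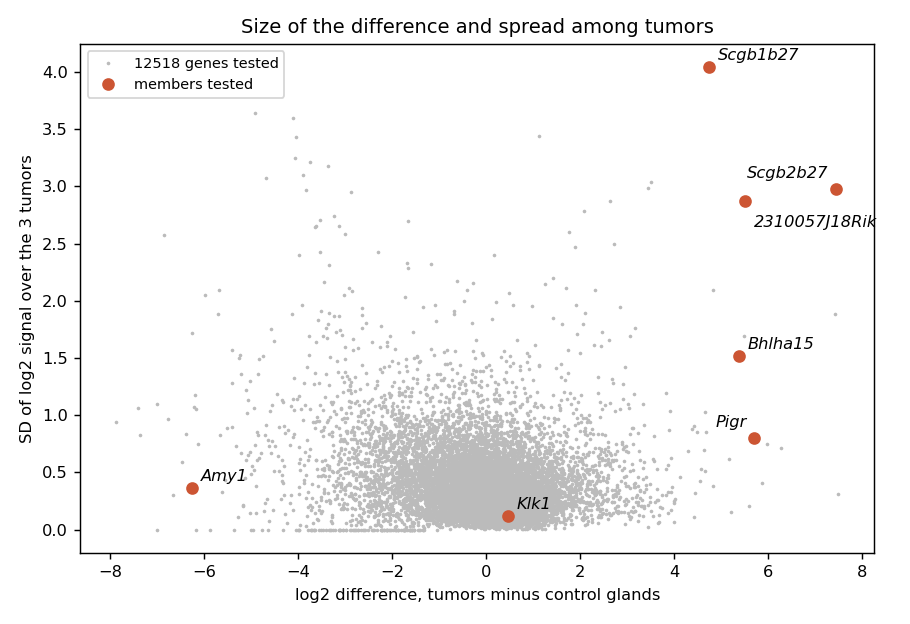
Each grey point is 1 of 12518 tested genes, with the log2 difference between tumors and control glands on the horizontal axis and the SD of log2 signals over the 3 tumors on the vertical axis; the 7 members tested are in orange. Scgb1b27 has an SD of 4.04 and Scgb2b27 of 2.98, while Amy1 at 0.36 and Klk1 at 0.119 lie among the bulk of genes in spread.

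Over the 6 arrays the log2 signals of Scgb2b27 correlated with those of 2310057J18Rik at r = 0.988, of Bhlha15 with those of Pigr at r = 0.984 and of Scgb2b27 with those of Scgb1b27 at r = 0.935. These values share the same arrays and the same distance between the groups, and are given as a description. Outside the members, the genes most like Scgb2b27 were Magt1, a magnesium transporter and oligosaccharyltransferase subunit (r = 0.9991), and Klk1b11 (r = 0.9984). Those most like Bhlha15 were Trim33 and Tacr3 (r = 0.9987 and 0.9962). Tacr3, the neurokinin B receptor gene, read 198.1, 69.9 and 143.7 in the control glands and 553.6, 1199 and 1872.9 in the tumors, while Trim33 moved less, by a log2 difference of 1.06. The closest genes were Spa17 and Mettl23 for Scgb1b27, Set and Tug1 for Pigr, Nt5c3 and Tchh for Klk1, and 8430429K09Rik and Tm9sf3 for 2310057J18Rik, all at r of 0.9917 or above.

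The name of salivary or lacrimal genes was held against other products of these glands, and these were mostly low. Of 19 further salivary acinar products with a probe set, 6 were tested, 1 was higher in tumors, 2 were lower and 3 were not called, and 13 failed the filter, 6 of the 19 being under the floor on every array. Among those that failed, Dmbt1 reached 665.3 and 395.2 in control glands 1 and 2 and at most 30.3 in the tumors. The one that was higher was Car6, the secreted carbonic anhydrase of saliva and tears, at 75.8, 65.2 and 169.4 in the control glands and 3576.6, 35510.7 and 32907 in the tumors (log2 difference 7.42, SE 0.879, limma adjusted p = 0.00121). Its tumor pattern resembled that of Scgb2b27, with tumor 1 far below tumors 2 and 3. The parotid secretory protein gene Bpifa2 read at most 46.3, the demilune protein gene Dcpp1 at most 7.7 and the proline-rich protein gene Prpmp5 at most 35.1 on any array, all under the floor. These 3 genes and Dmbt1 were named after their values were seen. Lyz1 and Lyz2, which are also macrophage genes, were lower by -1.77 and -1.98 (limma adjusted p = 0.0365 and 0.0304), calls that were lost with no filter and without control gland 1 or 2 for both, without control gland 3 for Lyz2 and without tumor 1 or 3 for Lyz1 (limma adjusted p up to 0.13), and Ltf and Smr2 were not called (limma adjusted p = 0.977 and 0.739).

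Of 8 lacrimal gland products with a probe set, 2 were tested and both were higher: Wfdc18 by 2.42 and Tcn2 by 1.21 (limma adjusted p = 0.0187 and 0.014). Both genes are also expressed outside the lacrimal gland. Of the 6 that failed the filter, Obp1a and Lcn11 were under the floor on all arrays and Wfdc12 reached 213.7 in control gland 2 and 76.8 in the tumors, all 3 named after their values were seen. Of 5 tested products of salivary ducts and submandibular granules, 1 was higher, Egf, the epidermal growth factor gene (log2 difference 2.46, limma adjusted p = 0.0253), and 2 were lower, the bicarbonate cotransporter gene Slc4a4 and the sodium channel gene Scnn1a (-2.71 and -1.53, limma adjusted p = 0.000845 and 0.0442). Scnn1b and Kcnma1 were not called (limma adjusted p = 0.37 and 0.076), and Scnn1b passed without control gland 2 (limma adjusted p = 0.0313). The calls of Wfdc18, Egf and Scnn1a were each lost with no filter and without control gland 1, tumor 2 or tumor 3, that of Wfdc18 also without control gland 2, those of Egf and Scnn1a also without control gland 3 and that of Scnn1a also with a floor of 16 (limma adjusted p up to 0.087, 0.109 and 0.143).

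Genes of the secretory machinery were divided. In fluid secretion by acinar cells, 2 of 8 tested genes were higher, 1 lower and 5 not called, with a median log2 difference of 0.9. Kcnn4, a calcium-activated potassium channel, read 1091, 553.8 and 1538.1 in the control glands and 16428.2, 28126.3 and 32014.1 in the tumors (log2 difference 4.65, limma adjusted p = 0.000454), and Itpr3, an IP3 receptor gene, was higher by 1.48 (limma adjusted p = 0.046), a call lost at floor 16, without the filter and without control gland 2 or 3 or tumor 1 or 3 (limma adjusted p up to 0.145). Itpr2 was lower by -0.75 (limma adjusted p = 0.0321), a call lost with equal array medians, with the mean over probe sets and without control gland 1 or 3 or tumor 1 or 2 (limma adjusted p up to 0.129), and Atp1b1 and Chrm1 were furthest from passing (0.618 and 0.447). Aqp5, the water channel of salivary and lacrimal acini, was not called (limma adjusted p = 0.24): it read 1053.1, 294.4 and 704.4 in the control glands and 308.9, 5515.8 and 6438.5 in the tumors, the pattern of Scgb1b27 with tumor 1 at the control level. It was named after its values were seen. In regulated exocytosis 5 of 14 tested genes were higher, 2 lower and 7 not called. Sytl1, a Rab27 effector, was higher by 3.55 and the vesicle fusion gene Vamp8 by 1.55 (limma adjusted p = 0.00173 and 0.00315), and Syt7, a calcium sensor, was lower by -2.33 (limma adjusted p = 0.000324). Rab27b, a GTPase of granule release, was higher by 1.58 (limma adjusted p = 0.016), a call lost with no filter and without control gland 3 or tumor 2 (limma adjusted p up to 0.0644), and Stx4a and Unc13d were furthest from passing (limma adjusted p = 0.612 and 0.426).

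Among transcription factors of secretory cells other than Bhlha15, 4 of 9 tested were higher, 3 lower and 2 not called, with a median log2 difference of -0.22. Spdef, a factor of mucous and other secretory cells, read 16.3, 59.1 and 54.5 in the control glands and 123.1, 738.1 and 1275.6 in the tumors (log2 difference 3.16, limma adjusted p = 0.0192), lowest in tumor 1 and highest in tumor 3 as Bhlha15 was. Creb3l4 was higher by 2.38 (limma adjusted p = 0.0255). Both lost their calls with a floor of 100 and with no filter (limma adjusted p up to 0.0931 and 0.109). Spdef also lost its call without control gland 3, and Creb3l4 without control gland 1 or 2. Spdef and Creb3l4 reached 100 in the tumors alone and were each tested in 11 of the 16 limma alternatives. Foxa1, a factor of hormone-responsive luminal cells, was lower by -4.52, and Gata6 by -2.29 (limma adjusted p = 0.000126 and 0.000995). Atf6 and Creb3l2 were not called (limma adjusted p = 0.451 and 0.123). Of the 12 milk product genes tested, 0 were called by limma at an adjusted p under 0.05, 1 had an unadjusted p under 0.05 and the methods' test called 0. Their summed signal, 12069 to 123970 in the control glands and 54747 to 182859 in the tumors, was lowest in tumor 2 among the tumors, unlike the secretoglobins.

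**Figure D3:**
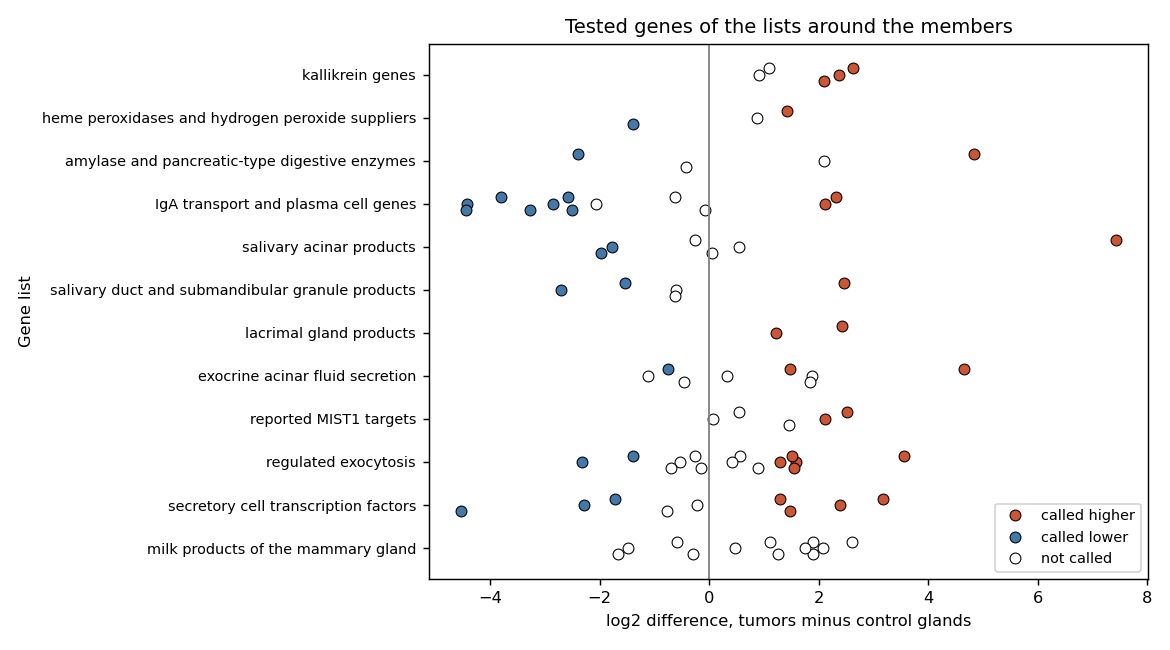
Log2 differences between tumors and control glands for the tested genes of 12 lists around the members, 1 point per gene; orange is called higher, blue called lower and white not called at a limma adjusted p under 0.05. The salivary acinar list has 1 gene far to the right, Car6 at 7.42, and the IgA and plasma cell list lies mostly to the left.

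Markers of other tissue in the samples moved with the groups and with single arrays. Pan-epithelial genes, of which 13 of 16 tested were higher in tumors, 1 lower and 2 not called, had a summed signal of 14205 to 31276 in the control glands and 85899, 101543 and 108761 in the tumors. The epithelial sums of the tumors were thus close to one another, with that of tumor 1 the lowest. Skeletal muscle genes summed to 9744, 263724 and 93250 in the control glands and to 49894, 2850 and 1176 in the tumors. Of these genes limma called 0 of 12, with 3 at an unadjusted p under 0.05 and 0 by the methods' test. Tumor 1 had the highest muscle sum of the tumors. Lymph node B and T cell genes, 3 of 4 tested lower and 0 higher, summed to 7554 to 25518 in the control glands and 3098 to 4042 in the tumors. Airway epithelium genes, of which limma called 0 of 4, with 0 at an unadjusted p under 0.05 and 0 by the methods' test, summed to 839 to 2518 in the control glands and 1099 to 2973 in the tumors. The part of these tissues in the members' differences was not tested. Of the salivary and lacrimal gland development factors, 4 of 12 tested were higher, 2 lower and 6 not called. Etv5, Foxc1, Sox10 and Trps1 were higher by 2.97, 2.57, 2.42 and 1.66 (limma adjusted p = 0.00229, 0.0106, 0.0156 and 0.02), and Sox9 and Tfcp2l1 were furthest from passing (limma adjusted p = 0.964 and 0.963). With no filter Foxc1, Sox10 and Trps1 lost their calls, Sox10 also without tumor 3 and Trps1 also without tumor 2 or 3 (limma adjusted p up to 0.0604, 0.0769 and 0.0796).

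**Figure D4:**
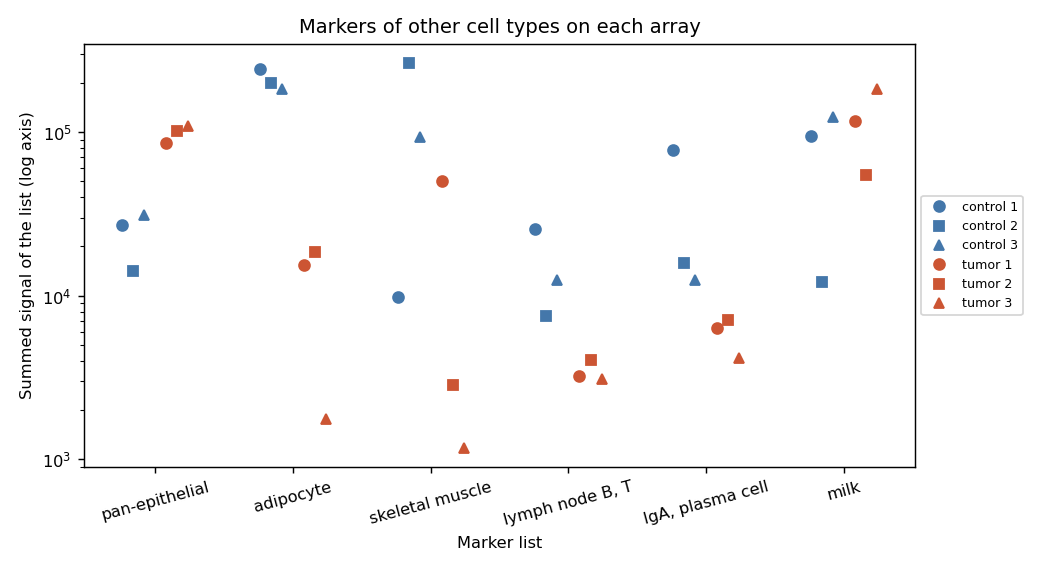
Summed signal (log axis) of 6 marker lists on each array; blue points are control glands, orange points are tumors and the shape gives the replicate. Pan-epithelial sums lie between 85899 and 108761 in all tumors, adipocyte sums are lower in every tumor than in every control gland, and tumor 1 has the highest muscle sum of the tumors.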

How the data were processed

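The authors hybridized RNA of 3 tumors and 3 control glands to Affymetrix M430 2.0 arrays and made the deposited intensity values with MAS5, 1 linear signal per probe set, scaled per array to a target of 500. No genome build is named for them. The 64 control probe sets among 45101 were dropped. By the platform annotation, 34945 had 1 gene symbol, 932 several and 9160 none, and only those with 1 were used. Signals under 50 were set to 50 and log2 values taken. Probe sets with at least 100 on at least 3 of 6 arrays were kept, and each gene was represented by its kept probe set of highest mean log2 value. Genes that failed this filter are described from the probe set with the highest mean of all.

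Tumors and control glands were compared over 12518 genes with limma 3.58.1 (lmFit, eBayes) under R 4.3.3, using 2-sided tests and Benjamini-Hochberg adjustment, called at 0.05. The members and the 19 lists around them (279 symbols, 220 with a probe set of 1 symbol) were chosen with earlier results of these data known. By rule, the text names all members with every probe set, per list up to 4 called genes with the largest change and up to 2 furthest from passing (for markers of milk and of tissues other than the secretory glands, counts and sums alone), and per member the 2 genes most correlated with it. Promoter windows are from RefSeq, GRCm38.p6, in which all 9 members were found by symbol. As alternatives the floor was set to 16 or 100 or replaced by adding 50, and arrays were quantile-normalized or brought to equal medians. The filter was dropped or raised to 200, replicate number was entered as a block, and arrays were left out singly. Further alternatives were the mean over probe sets, the methods' t-test, and leaving out probe sets with names ending in _s_at, _x_at or _a_at. The steps were tested on simulated data. The number of arrays limits the precision. No proteins were used here.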

Additional observations from a re-analysis of the deposited data

How the results depend on the processing

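The members were chosen by these signals, so their counts per setting are a description and no evidence of stability. The count of 4 members higher and 1 lower in tumors was the same with the floor at 16 or 100, with 50 added in place of a floor, after quantile normalization, with a filter at 200, with the mean over probe sets and when any control gland was left out. Over all genes, 2045 were higher and 2098 lower in the main fit. A floor of 16 gave 1954 and 1991, and a floor of 100 gave 2151 and 2050. With no filter 1703 and 1564 of 18193 genes were called. With no filter the 4 members higher included Klk1 and not 2310057J18Rik, and the cause was not tested. Leaving out 1 array gave 2 to 4 members higher, 2 each without tumor 2 and without tumor 3. Without any 1 tumor, Scgb2b27 and 2310057J18Rik reach 100 on only 2 arrays and cannot pass the filter. Amy1 was lower in every setting that left its probe set in. Without probe sets ending in _s_at, _x_at or _a_at 0 members were lower, since that of Amy1 ends in _a_at. The methods' t-test called 0 members higher and 1 lower, where the limma fit called 4 and 1. Over all genes it called 685 higher and 920 lower, and 67 and 73 after Benjamini-Hochberg adjustment.

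Of 143 tested genes in the lists, 41 (28.7%) were higher and 35 (24.5%) lower, beside 16.3% and 16.8% of all genes tested. Leaving out 1 array gave 27 to 38 higher, lowest without tumor 3, and 21 to 37 lower, lowest without control gland 3. No filter gave 25 and 20, and the methods' t-test 17 and 17, and the cause was not tested. That t-test called 0 genes in the lists of heme peroxidases, digestive enzymes, MIST1 targets and lymph node cells. It also called 0 of the salivary acinar, salivary duct and lacrimal products, Car6 and Tcn2 among them. Equal array medians moved the median log2 difference of all genes from 0.071 to 0.309 and the share of calls that were higher from 49.4% to 64.5%. Under it Scgb1b27 and Klk1 were called too, 6 members higher in all. With 1 array left out, 1241 to 1545 genes were higher and 1151 to 2012 lower, against 2045 and 2098.

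The labels do not say whether samples with the same replicate number belong together. Deviations from the group means correlated at -0.22, 0.02 and 0.04 between same-numbered arrays, and at -0.16 to 0.13 between differently numbered ones. With 3 arrays per group these values cannot show whether the samples were paired. With the replicate block, 4 members were higher and 1 lower, and 44 and 34 genes of the lists. Among the genes named, the block changed the call of Klk1b21 alone, which passed (limma adjusted p = 0.0373). Signals near the floor of 50, as for Prol1, Lpo and the control glands in Scgb2b27, 2310057J18Rik, Gjb1 and Klk1b11, limit the size of those differences.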
